A study of Homo sapiens with 18 samples.

Results

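The transcriptome of VCaP cells after 8 h of 50 µM PBITE-1 was compared with that of DMSO-treated cells, in 3 samples of each, which are 6 of the 18 samples of the series. These 6 samples were taken by their labels alone, so no measured value entered the choice. VCaP is an androgen-responsive prostate cancer line in which the TMPRSS2-ERG fusion is expressed. PBITE-1 is a small molecule that the study selected for binding to the PNT domain of ERG. Parental VCaP cells were used in all groups described here, and the samples at 4 and 12 h of 50 µM PBITE-1, 3 of each, served to place the 8 h values in time. The series also holds 6 samples of a VCaP line with an inducible ERG hairpin, which entered no comparison here. All 3 times were set against the same DMSO samples, whose collection time was not given in the labels. Time in culture and exposure to the compound therefore cannot be told apart. The study's methods call the 3 samples of each time biological replicates.

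ERG is an ETS transcription factor that is silent in normal prostate epithelium. In fusion-positive tumours the androgen-driven TMPRSS2 promoter places it under androgen control, so that ERG, TMPRSS2 and androgen target genes are linked in their transcription. Stress pathways, by contrast, are switched on within hours. Immediate early genes encode short-lived factors of the AP-1, EGR and KLF families, the integrated stress response acts through ATF4 and raises amino acid transport and synthesis, and SREBP2 raises cholesterol synthesis when sterols in the endoplasmic reticulum fall.

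Total counts ranged from 14827453 to 17140075 in DMSO and from 11308600 to 17483423 at 8 h, so that 3 counts corresponded to at most 0.269 CPM (counts scaled by TMM to a library of 1000000) in any parental sample. Of the 22034 genes in the table, 14164 passed the filter on low counts and were tested. CPM are scaled by TMM throughout, and fold changes are log2 values fitted by limma-voom, with Benjamini-Hochberg adjusted p over these 14164 genes. Mitochondrially encoded genes took 9.67 to 10.1% of counts in DMSO and 8.62 to 8.98% at 8 h. The first principal component of the 12 parental samples held 64.2% of the variance and ordered the groups from DMSO over 4 h and 8 h to 12 h. All 9 luminal prostate epithelial markers were expressed. Their summed level was 8250 to 8360 CPM in DMSO and 5520 to 5620 CPM at 8 h, with HOXB13 among the 2 called lower. Markers of other cell types were much scarcer. The 4 neuroendocrine markers summed to 85.2 to 94.6 CPM in DMSO and 99.8 to 103 CPM at 8 h, with 0 called in either direction by limma-voom, although SYP (log2 fold change 0.44) and INSM1 (0.61) were higher by the adjusted p alone. The 2 basal markers in the table summed to 3.85 to 6.04 CPM in DMSO and 3.02 to 4.95 CPM at 8 h, with TP63 called higher, from 0 counts in every DMSO sample to at most 14 counts at 8 h. The 5 fibroblast markers reached 2.20 to 3.37 CPM in DMSO and 5.44 to 8.49 CPM at 8 h, where COL1A1 was called higher and DCN stood at 0 counts in all 6 samples. The 4 leukocyte markers reached at most 1.43 CPM and the 3 endothelial markers at most 1.52 CPM, with CD3E and CDH5 at 0 counts in all 6 samples.

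After 8 h, the response was broad, and more of the large changes were increases. A gene was called if its adjusted p was under 0.05 and its log2 fold change was above 1 or below -1. By this rule 1255 genes (8.86% of those tested) were lower and 2105 genes (14.9%) were higher at 8 h than in DMSO. By the adjusted p alone, 5238 genes (37% of those tested) were lower and 5081 (35.9%) were higher. The median log2 fold change over all genes was -0.02, and the 5th and 95th percentiles were -1.35 and 2.22. A log2 fold change above 3 was fitted for 364 genes, whereas 42 genes were below -3. The 2 groups did not overlap in CPM for 5375 genes (37.9%) with all 8 h samples below DMSO and 5192 genes (36.7%) with all of them above.

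**Figure D1:**
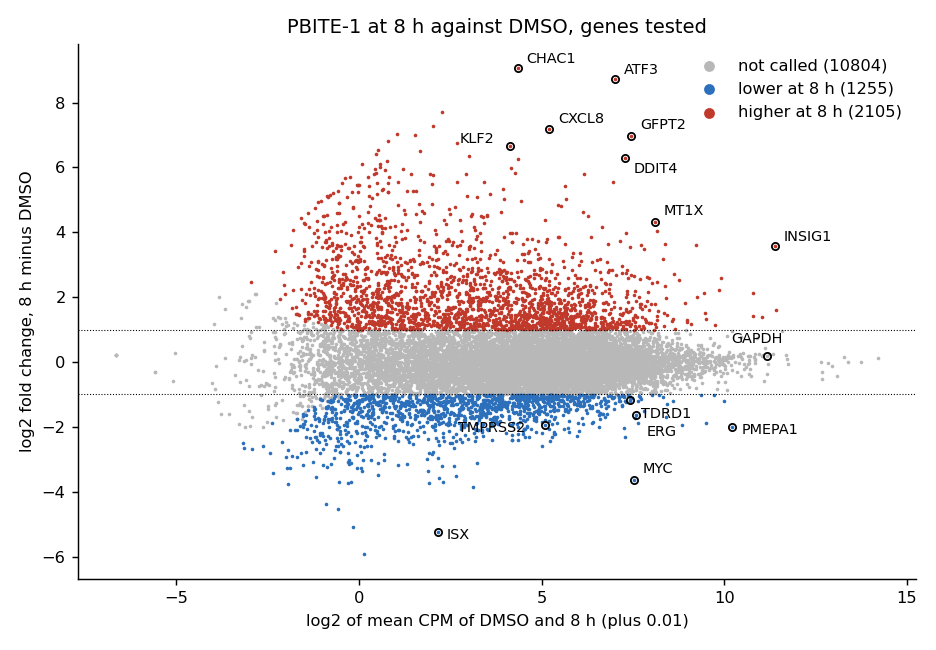
Log2 fold change at 8 h of PBITE-1 against DMSO (vertical axis) over the log2 mean CPM of both groups (horizontal axis) for the 14164 genes tested. Blue points are the 1255 genes called lower, red points the 2105 called higher, and dotted lines mark a log2 fold change of 1 in each direction. The increases reach 9.06 (CHAC1) and 8.71 (ATF3), whereas ISX is at -5.23.

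Called genes were concentrated among those with low levels. With the genes split into 3 equal groups by mean CPM, 15.3% were lower and 22.3% higher in the group of lowest level, against 3.11% lower and 10.1% higher in the group of highest level. The genes called lower were shorter than the rest. Their median genomic span was 19.7 kb, against 34.2 kb for genes called higher and 32.6 kb for all genes with an annotated structure. Single-exon genes made up 7.14% of the genes called lower, 5.09% of those called higher and 3.68% of all.

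ERG (ENSG00000157554, chromosome 21, 38380027 to 38661780, minus strand, GRCh38) was lower at 8 h. Its level was 280, 289.5 and 297.7 CPM in the DMSO samples and 96.6, 94.0 and 90.7 CPM at 8 h. The groups were far apart, and the log2 fold change was -1.62 (SE 0.05, adjusted p = 8.52e-28, limma-voom). ERG had stood at 180 ± 3.36 CPM (SD, n = 3) at 4 h and did not move further after 8 h, with 97.2 ± 7.66 CPM at 12 h and a log2 difference of 0.04 (adjusted p = 0.501) between 8 and 12 h. Counts per gene do not separate the fusion transcript from the intact ERG allele. TMPRSS2, the serine protease gene that supplies the fusion's promoter, went from 53.4, 54.9 and 52.9 CPM to 15.8, 11.1 and 15.3 CPM, a log2 fold change of -1.95 (SE 0.10).

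Among 13 tested genes linked to ERG in fusion-positive prostate cancer, 5 were called lower and 2 higher, beside 8.86% and 14.9% of all genes. The median log2 fold change was -0.35. Besides ERG, those called lower were TDRD1, ARHGDIB, HLA-DMB and PLAT. TDRD1, a germ-line gene of the piRNA pathway, fell from 224.4, 238.9 and 251.6 CPM to 107.6, 100.8 and 109.6 CPM (log2 fold change -1.17, SE 0.05). ARHGDIB, a GDP-dissociation inhibitor of small GTPases, had a log2 fold change of -1.09 and HLA-DMB, a chaperone of antigen loading, of -1.01, which became -0.92 without 8 h replicate 1 and -0.997 without DMSO replicate 2, both short of the threshold, as it also was, by less than 0.001, in the fits with the 2 groups alone and with the replicate block. PLAT, tissue plasminogen activator, was scarce, at 3.22, 3.60 and 3.08 CPM in DMSO and 1.46, 1.93 and 0.63 CPM at 8 h (log2 fold change -1.33, SE 0.31). Its call rested on 1 sample, since without 8 h replicate 3 the log2 fold change was -0.97. PLA1A, a phosphatidylserine phospholipase, stood at 142.1, 126.8 and 135.6 CPM in DMSO and 120, 111.7 and 106.3 CPM at 8 h. Its log2 fold change of -0.25 (adjusted p = 7.95e-05) did not pass the fold threshold at 8 h, and a log2 difference of -1.16 followed between 8 and 12 h. The called increases were SOX9, a lineage factor (log2 fold change 1.05, but 0.98 by library size alone and 0.85 as a ratio to GAPDH, both short of the threshold), and PLAU, urokinase, which had 1, 0 and 0 counts in DMSO and 49, 36 and 30 counts at 8 h. EZH2, the methyltransferase of polycomb repressive complex 2, had a log2 fold change of 0.32 and was not called, and of the 11 members of that complex and its accessory factors only PHF19 was called (-1.06).

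Part of the androgen response was lower. Of 22 tested genes of that list, 7 were called lower and 1 higher, beside 8.86% and 14.9% of all genes tested. The median log2 fold change was -0.74. PMEPA1, a feedback inhibitor of TGF-beta signalling, fell from 1932, 1892 and 1907 CPM to 489, 477 and 471 CPM (log2 fold change -1.99, SE 0.05). CHRNA2, STEAP4, PLPP1 and SLC45A3 were called lower as well, with log2 fold changes of -1.74, -1.41, -1.25 and -1.07. The kallikrein genes lagged behind. KLK3, which encodes prostate-specific antigen, was at 84.3 ± 4.22 CPM in DMSO and 51.3 ± 1.98 CPM at 8 h (log2 fold change -0.71), and then at 7.90 ± 0.706 CPM at 12 h (SD, n = 3 each). KLK2 moved by -0.38 at 8 h and by -1.75 from 8 to 12 h. FKBP5, a co-chaperone of steroid receptors and a common androgen target, had a log2 fold change of -0.08 (adjusted p = 0.0885). The list's called increase was TSC22D3, which is also a glucocorticoid target, from 1.12, 0.85 and 1.08 CPM to 19.2, 21.5 and 20.8 CPM. Among 13 prostate lineage factors, 3 were called lower and 2 higher, beside 8.86% and 14.9% of all genes tested. HOXB13 (-1.08) and GRHL2 (-1.02) fell, KLF5 (2.58) and ELF3 (1.95) rose, and FOXA1 had a log2 fold change of -0.20.

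Other ETS factors moved both ways. Of 18 tested, beside 8.86% called lower and 14.9% called higher among all genes, 3 were called lower, namely ERG, ELK3 (log2 fold change -1.94) and FEV (-1.42), and 5 higher, namely ETV5, ETS1, ELF3, ELF1 and ERF. ETS1 rose from 2.76, 2.69 and 3.25 CPM to 18.4, 21.1 and 21.3 CPM (log2 fold change 2.78, SE 0.18). EHF, an epithelial ETS factor, was at 461 ± 8.28 CPM in DMSO and 485 ± 7.76 CPM at 8 h (SD, n = 3), with an adjusted p of 0.0502.

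**Figure D2:**
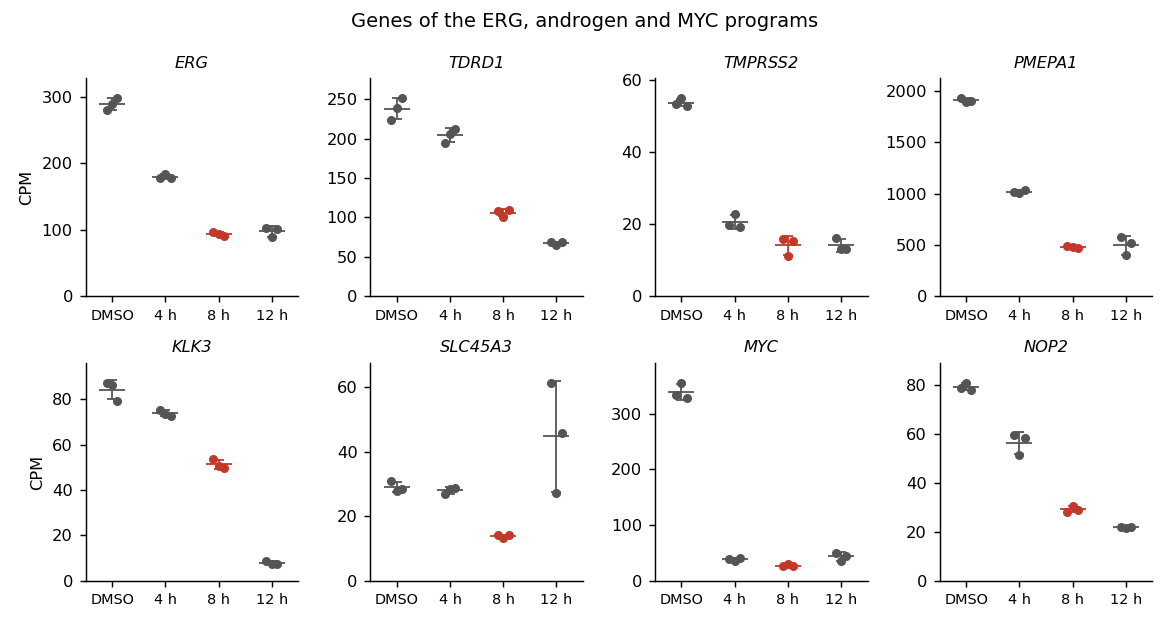
TMM-scaled CPM (vertical axes, linear from 0) of 8 genes in DMSO and at 4, 8 and 12 h of PBITE-1. Points are samples, horizontal marks are means and bars are SDs (n = 3), with 8 h in red. In all 8 panels the 8 h samples lie below the DMSO samples, and ERG stays near its 8 h level at 12 h.

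MYC (ENSG00000136997), the E-box factor that drives growth and ribosome production, was among the most strongly lowered genes. It had 334.4, 355.6 and 328.5 CPM in DMSO and 26.4, 29.3 and 26.6 CPM at 8 h, a log2 fold change of -3.63 (SE 0.08, adjusted p = 3.76e-32). Most of this drop was present by 4 h (38.4 ± 2.35 CPM, SD, n = 3), and the level at 12 h was 43.8 ± 7.36 CPM. In the rest of its network, MXD1, a repressor that competes with MYC for MAX, and MYCL were called higher (log2 fold changes 2.06 and 2.28), while MAX had a log2 fold change of 0.88.

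Ribosome biogenesis factors were lower as a group. Of 40 tested, 14 were called lower and 0 higher, beside 8.86% and 14.9% of all genes tested, and edgeR gave the same counts. By the adjusted p alone, 37 of the 40 were lower and 1 higher, beside 37% and 35.9% of all genes tested. The unadjusted p gave the same 37 and 1. The median log2 fold change was -0.73, against -0.02 over all genes. RRS1, NOP16 and PPAN, factors of the large subunit, had log2 fold changes of -2.22, -2.06 and -2.06, and the small-subunit factor BYSL had -1.91. NOP2, which methylates the large-subunit ribosomal RNA, went from 79.0, 81.0 and 78.3 CPM to 28.2, 30.6 and 29.1 CPM (log2 fold change -1.44, SE 0.07). POLR1A, the largest subunit of RNA polymerase I, had -1.36 and UBTF, its upstream binding factor, -1.01, which was short of the threshold without 8 h replicate 2 (-0.97) or 8 h replicate 3 (-0.998). In the direct contrast with 4 h, 35 of the 40 were lower at 8 h at an adjusted p under 0.05, as were 26.3% of all genes tested. The 46 cytosolic ribosomal protein genes did not share the change. Of these, 0 were called in either direction by limma-voom or edgeR, and the median was 0.14. At an adjusted p under 0.05, 31 were higher and 6 lower (32 and 6 by the unadjusted p). By the adjusted p alone, the shares over all genes tested were 35.9% and 37%.

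The promoters of BYSL and NOP2 are shown because the E-box that MYC binds, CACGTG, lies in both. They run from 250 bases before to 50 bases after the transcription start in RefSeq (GRCh38.p14), with BYSL at chr6:41921249-41921548 on the plus strand and NOP2 at chr12:6568242-6568541 on the minus strand. Capitals mark the E-box, which reads the same on both strands.
BYSL: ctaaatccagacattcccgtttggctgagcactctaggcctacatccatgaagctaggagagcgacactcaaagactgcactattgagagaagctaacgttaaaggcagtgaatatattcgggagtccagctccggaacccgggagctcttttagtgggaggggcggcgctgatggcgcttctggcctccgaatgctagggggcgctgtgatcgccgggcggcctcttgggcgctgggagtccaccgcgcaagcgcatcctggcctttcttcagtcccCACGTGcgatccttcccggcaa
NOP2: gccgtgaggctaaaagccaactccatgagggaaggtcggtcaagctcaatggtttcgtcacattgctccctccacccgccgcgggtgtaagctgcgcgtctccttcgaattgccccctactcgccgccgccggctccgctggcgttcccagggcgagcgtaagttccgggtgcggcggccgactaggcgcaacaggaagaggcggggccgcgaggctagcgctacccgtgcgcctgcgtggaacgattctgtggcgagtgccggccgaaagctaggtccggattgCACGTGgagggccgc
An E-box was present in 12.3% of the 10946 tested genes with a RefSeq promoter, in 16.2% of those called lower and in 10.4% of those called higher. Of the 32 ribosome biogenesis genes with a promoter, 13 held it, including 6 of the 13 called lower. NOP16 and PPAN, which were lowered more than BYSL and NOP2, held no E-box in this window. For the ETS core CCGGAAG, searched on both strands, the share was 21.6% of all promoters, 21.9% of those called lower, 11.5% of those called higher and 23.4% of those not called. Of the 11 ERG-linked genes with a promoter, 1 held the ETS core, TDRD1, which is 1 of the 4 called lower. These matches describe the letters in the window and not binding.

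The 12 most strongly lowered genes that passed the naming rule were ISX, LRTM2, LRRTM4, KLHDC7A, MYC, FJX1, LRFN1, CLDN8, SPRY4, SAMD10, APLN and PLCB2, with log2 fold changes from -5.23 to -2.99. ISX, an intestinal homeobox factor, was at 8.54, 9.52 and 7.82 CPM in DMSO and at 0.35, 0.48 and 0 CPM at 8 h. LRTM2, LRRTM4 and LRFN1 encode leucine-rich repeat membrane proteins. CLDN8 is a tight junction claudin and APLN the ligand of the apelin receptor, the latter at 18.7, 14.2 and 17.7 CPM in DMSO and 1.93, 1.86 and 1.97 CPM at 8 h. SPRY4, a feedback inhibitor of receptor tyrosine kinase signalling, fell from 8.61, 8.85 and 8.91 CPM to 0.93, 1.03 and 0.81 CPM. Apart from MYC, these were genes of low level, none above 18.7 CPM in any DMSO sample.

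Stress genes were among the most strongly raised. CHAC1 (ENSG00000128965, chromosome 15, 40952962 to 40956519, plus strand, GRCh38), which degrades glutathione, had 1, 0 and 2 counts in DMSO and 666, 597 and 462 counts at 8 h. The ratio of CPM was 660-fold, with an exact 95% interval from 225 to 3200 that covers counting error only. ATF3, a stress-induced AP-1 partner, rose from 0.46, 1.04 and 0.40 CPM to 249.3, 253.6 and 262.8 CPM (log2 fold change 8.71, SE 0.63). CCL20 and WNT11 also came from near 0, with 1 and 2 counts over the 3 DMSO samples against 401 and 347 counts over the 8 h samples. Their ratios were 460-fold (interval 82.1 to 18200) and 199-fold (54.7 to 1650). The naming rule further gave CXCL8, GFPT2, CEACAM20, KLF2, ATP10D, DDIT4, DLL4 and MAFA, with log2 fold changes from 7.19 down to 5.97. GFPT2, a rate-limiting enzyme of hexosamine synthesis, went from 3.15, 2.20 and 3.08 CPM to 342.5, 357.3 and 343.7 CPM. DLL4, a Notch ligand, went from 0.39, 0.37 and 0.80 CPM to 40.7, 41.7 and 38.2 CPM.

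The integrated stress response was raised, and further than at 4 h. Of 35 tested genes, 26 were called higher and 2 lower, beside 14.9% and 8.86% of all genes tested. The median log2 fold change was 2.15, after 1.11 at 4 h. In the direct contrast with 4 h, 11 of the 35 were called higher at 8 h and 0 lower (limma-voom), beside 4.43% and 2.22% of all genes tested. By the adjusted p alone 28 were higher and 2 lower, beside 26.7% and 26.3% of all genes. ATF4, the central factor, had a log2 fold change of 1.22, and its partner DDIT3 went from 13.5, 9.40 and 9.82 CPM to 196, 190.1 and 187.4 CPM (4.16, SE 0.12). ASNS, asparagine synthetase, rose from 91.6, 88.4 and 92.7 CPM to 1098, 1147 and 1110 CPM (log2 fold change 3.62, SE 0.05), with 504 ± 18.9 CPM at 4 h. SLC7A11, the cystine importer, rose from 28.1, 33.9 and 37.0 CPM to 528.6, 542 and 563 CPM, and GDF15, a stress-induced hormone, from 3.09, 2.69 and 3.71 CPM to 90.5, 84.9 and 90.2 CPM. The mTORC1 inhibitors SESN2 and DDIT4 had log2 fold changes of 5.79 and 6.28. Serine synthesis was raised unevenly, with PSAT1 called (2.34) and PHGDH (0.89) and PSPH (0.74) short of the threshold. The decreases in the list were ATF5 (-1.14) and VLDLR (-1.91). Among 20 cytosolic aminoacyl-tRNA synthetases, CARS1 (2.24), AARS1 (1.72), GARS1 (1.25) and TARS1 (1.19) were called higher, beside 14.9% of all genes tested.

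The promoter of CHAC1 (RefSeq, GRCh38.p14, chr15:40953221-40953520, plus strand) is shown because it holds the amino acid response element, TGATGNAA, to which ATF4 complexes bind. Capitals mark the match, which lies on the minus strand.
CHAC1: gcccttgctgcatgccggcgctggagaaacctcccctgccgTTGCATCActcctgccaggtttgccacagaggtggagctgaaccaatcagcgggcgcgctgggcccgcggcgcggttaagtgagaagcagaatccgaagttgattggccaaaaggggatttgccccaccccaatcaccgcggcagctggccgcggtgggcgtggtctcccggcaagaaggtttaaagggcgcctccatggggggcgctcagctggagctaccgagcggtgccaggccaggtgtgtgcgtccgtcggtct
This element was found, on either strand, in 2.74% of all promoters of tested genes and in 3.42% of those called higher. Of the 29 genes of the stress list with a promoter, 8 held it, among them 6 of the 22 called higher (ATF3, CHAC1, ASNS, CEBPG, SLC3A2 and SLC1A4).

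Chaperones of the endoplasmic reticulum did not follow the integrated stress response. Of 24 tested genes of the unfolded protein response, 3 were called higher and 1 lower, beside 14.9% and 8.86% of all genes tested. Their median was 0.05 (-0.02 when scaled by library size alone). HSPA5, the main luminal chaperone, went from 1915, 1772 and 1891 CPM to 1482, 1438 and 1422 CPM (log2 fold change -0.36, SE 0.03) after 2321 CPM on average at 4 h. The sensor ERN1 (3.09), HERPUD1 (2.56) and DNAJB9 (1.38) were the called increases. DNAJB9, an HSPA5 co-chaperone, was at 25.2 ± 0.319 CPM at 8 h and 165 ± 19.1 CPM at 12 h (SD, n = 3). In the cytosol, 5 of 23 heat shock genes were called higher, beside 14.9% of all genes, led by DNAJB1 (2.60) and DNAJB4 (2.10). HSPE1, a mitochondrial co-chaperonin, was called lower (-1.08). HSPA1A and HSPA1B were at log2 fold changes of 1.96 and 1.94, but their near-identical sequences make the split of reads between them uncertain. Proteasome subunits were not called in either direction, 0 of 30 by limma-voom and by edgeR, with a median of -0.27. At an adjusted p under 0.05, 23 were lower and 4 higher (24 and 4 by the unadjusted p). By the adjusted p alone, 37% of all genes tested were lower and 35.9% higher.

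Immediate early genes were still raised at 8 h. Of 27 tested, 22 were called higher and 1 lower, DUSP2, beside 14.9% and 8.86% of all genes tested. The median log2 fold change was 3.18. JUN went from 29.6, 27.5 and 24.3 CPM in DMSO to 308.8, 319.7 and 321.4 CPM at 8 h, below its 4 h mean of 1010.4 CPM, and it was the list's called decrease between 4 and 8 h (log2 difference -1.65). JUND (3.18), EGR1 (3.70), JUNB (3.86) and KLF6 (3.60) differed from their 4 h levels by 0.30, -0.43, -0.28 and 0.11 on the log2 scale. IER3 had 0 counts in every DMSO sample and 16, 14 and 9 counts at 8 h, at least 14.9-fold higher against a floor of 3 counts over the group. Of 16 KLF and SP factors, 9 were called higher and 0 lower, beside 14.9% and 8.86% of all genes tested. The counts by edgeR were the same, and 1 was lower by the unadjusted p. KLF7 was late, at 26.4 CPM in DMSO, 28.6 CPM at 4 h and 136.1, 135.7 and 133.7 CPM at 8 h, whereas KLF2 was at 33.8, 34.8 and 36.0 CPM at 8 h and 8.52 ± 1.41 CPM at 12 h (SD, n = 3). MAPK feedback genes split, with DUSP10 (4.52) and DUSP5 (3.60) called higher and SPRY4 (-3.19), DUSP2 (-1.73) and SPRY1 (-1.5) lower.

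Most NF-kB response genes rose. Of 18 tested, 15 were called higher and 0 lower by limma-voom (16 and 0 by edgeR and by the unadjusted p), with a median of 2.86. The limma-voom shares over all genes tested were 14.9% and 8.86%. TNFAIP3, the ubiquitin-editing feedback inhibitor, went from 1.64, 3.30 and 2.06 CPM to 93.6, 102.8 and 98.1 CPM (log2 fold change 5.43, SE 0.24), and CXCL8, a neutrophil chemokine, from 0.46, 0.31 and 0.69 CPM to 62.0, 77.7 and 80.8 CPM. TNF had 0 counts in every DMSO sample and 34, 32 and 23 counts at 8 h, at least 34-fold higher against a floor of 3 counts over the group. With the 3 members at 0 in DMSO placed at this bound, the list's median stayed at 2.86. Interferon response genes were mixed, with 9 of 22 called higher and 2 lower, beside 14.9% and 8.86% of all genes tested. IRF7 (3.34), IRF1 (2.83) and IFIT2 (2.28) rose, while MX1 (0.00) and ISG15 (-0.16) did not pass the fold threshold. CXCL10 rose from 5.32, 6.59 and 6.45 CPM to 22.1, 24.0 and 27.5 CPM. CXCL11 was called lower (-1.57), but it lies within ART3, also lower (-1.23), and reads of the 2 genes may not be separable.

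**Figure D3:**
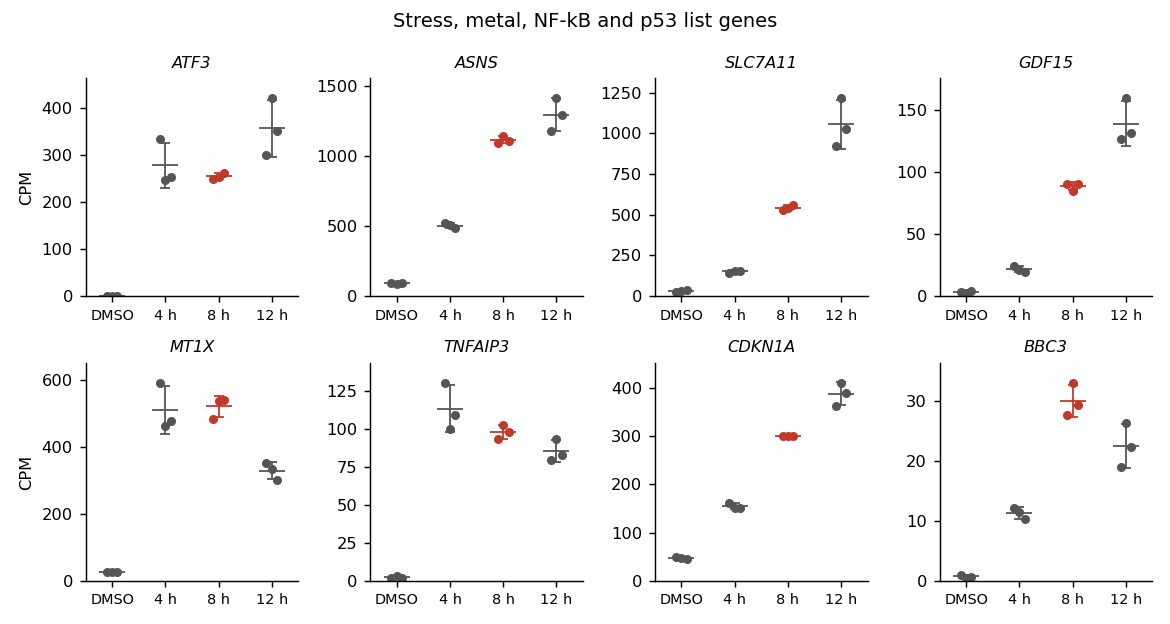
TMM-scaled CPM (vertical axes, linear from 0) of 8 genes of the stress, metal, NF-kB and p53 lists in DMSO and at 4, 8 and 12 h of PBITE-1. Points are samples, horizontal marks are means and bars are SDs (n = 3), with 8 h in red. All 8 h samples lie above the DMSO samples, ASNS, SLC7A11 and GDF15 continue to rise at 12 h, and MT1X declines from 522 CPM at 8 h to 330 CPM at 12 h.

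Metallothioneins, which bind zinc and other metals, were strongly raised at 8 h. MT1X rose from 25.8, 26.1 and 25.9 CPM to 484.1, 539.6 and 541.8 CPM (log2 fold change 4.32, SE 0.09), MT1E from 49.5, 52.9 and 47.3 CPM to 591.2, 629.4 and 639.5 CPM, and MT2A from 36.8, 39.9 and 33.7 CPM to 382.4, 427 and 426.4 CPM. Their near-identical copies make the split of reads among them uncertain. SLC30A1, the zinc exporter of the plasma membrane, had a log2 fold change of 2.46 and the vesicular exporter SLC30A2 of 2.22. In all, 6 of 11 tested genes of this list were called higher, beside 14.9% of all genes tested. SLC30A10, a manganese exporter, was called lower (-1.70). MTF1, the metal-sensing factor that drives these genes, had a log2 fold change of 0.43.

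The promoters of MT1X and MT2A are printed to show their repeated copies of the metal response element core, which is the site of MTF1. It was searched on both strands as TGCACNC or TGCGCNC, and capitals mark the matches. MT1X lies at chr16:56682220-56682519 and MT2A at chr16:56608334-56608633, both on the plus strand (RefSeq, GRCh38.p14).
MT1X: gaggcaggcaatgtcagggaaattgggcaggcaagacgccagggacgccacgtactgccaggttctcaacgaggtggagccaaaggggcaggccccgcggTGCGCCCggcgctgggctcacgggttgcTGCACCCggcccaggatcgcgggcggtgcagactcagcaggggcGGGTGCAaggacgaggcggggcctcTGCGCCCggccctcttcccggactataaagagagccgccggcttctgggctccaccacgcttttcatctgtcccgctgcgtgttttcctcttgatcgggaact
MT2A: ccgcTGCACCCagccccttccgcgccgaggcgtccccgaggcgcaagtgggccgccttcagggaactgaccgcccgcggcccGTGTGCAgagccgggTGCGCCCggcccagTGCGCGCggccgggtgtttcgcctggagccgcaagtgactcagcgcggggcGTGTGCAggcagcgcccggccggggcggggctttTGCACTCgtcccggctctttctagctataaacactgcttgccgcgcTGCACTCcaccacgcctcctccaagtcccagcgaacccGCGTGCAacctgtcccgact
MT1X held 4 matches and MT2A 8. The core is short, and 46.4% of all promoters held at least 1 match, as did 45% of those called higher. Sterol, antioxidant and heat shock elements were searched in the same way, and were found in 4.54%, 19.3% and 0.512% of all promoters. In the cholesterol, NRF2 and heat shock lists, 3 of 18, 6 of 21 and 8 of 21 promoters held them. Among list members called higher, these were 2 of 15, 1 of 7 and 0 of 5. Both of the 2 NRF2 list members called lower held the antioxidant element.

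Cholesterol synthesis was raised nearly throughout. Of 23 tested genes, 19 were called higher and 0 lower by limma-voom and by edgeR (21 and 0 by the unadjusted p). By limma-voom, 14.9% of all genes tested were called higher and 8.86% lower. The list's median log2 fold change was 1.41, after 0.54 at 4 h. INSIG1, the sterol-regulated retention protein of the SREBP system, went from 420.8, 397.7 and 427.6 CPM to 4969, 5005 and 4782 CPM (log2 fold change 3.57, SE 0.05). The factor SREBF2 itself had a log2 fold change of 0.01. NPC1, which exports cholesterol from lysosomes, rose with a log2 fold change of 3.17. In fatty acid synthesis 3 of 12 genes were called higher, beside 14.9% of all genes tested, namely ACSS2 (2.18), FASN (1.60) and SREBF1 (1.07).

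Cholesterol synthesis also contained genes whose level at 8 h stood above both neighbouring times. A gene was counted as highest at 8 h if it was called higher against DMSO and exceeded both 4 h and 12 h by more than 1.5-fold at an adjusted p under 0.05. This held for 210 genes (1.48% of those tested), and the mirror rule, lowest at 8 h, for 106 genes (0.748%). Both direct contrasts share the 8 h samples, so these counts are a description. In the cholesterol list 5 of 23 were highest at 8 h, among them HMGCS1, MSMO1, NSDHL and HSD17B7. MSMO1, a C4-demethylating oxidase, was at 323.2, 315.8 and 350.7 CPM in DMSO, 693 ± 78.4 CPM at 4 h, 1545, 1542 and 1502 CPM at 8 h and 891 ± 55.7 CPM at 12 h. NSDHL, the next enzyme of that demethylation, was at 103, 105.2 and 93.8 CPM at 8 h and at 38.6 ± 3.06 CPM at 12 h, close to its DMSO level of 39.8 ± 1.20 CPM (SD, n = 3).

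The naming rule gave MYH15, NEB, PKNOX2, ADCY10, MYRFL, CXCL10, ABCA1 and TFCP2L1 as the genes that stood out most at 8 h. NEB, the giant thin-filament protein nebulin, was at 9.59, 10.3 and 10.2 CPM in DMSO, 17.2 ± 2.06 CPM at 4 h, 53.7, 57.6 and 62.8 CPM at 8 h and 19.1 ± 2.62 CPM at 12 h (SD, n = 3). MYH15, a myosin heavy chain, followed the same course at 12.5, 13.0 and 13.5 CPM against 3.56 CPM at 4 h and 3.49 CPM at 12 h. ABCA1, the cholesterol exporter, was at 11, 14.9 and 18.7 CPM at 8 h, a wider spread than for the others, against 6.06 CPM at 4 h and 6.07 CPM at 12 h. At the other end were LRTM2, TIGD7, INHBB, PNMA8A, SLC45A3, MAGEF1, SMIM10L1 and PIGC. INHBB, the beta-B subunit of inhibins and activins, had 9.92, 10.4 and 10.7 CPM in DMSO, 4.55 ± 0.424 CPM at 4 h, 1.63, 1.51 and 1.79 CPM at 8 h and 4.00 ± 0.392 CPM at 12 h. SLC45A3, the prostate transporter prostein, was at 14.1, 13.2 and 14.2 CPM at 8 h and 44.8 ± 17.1 CPM at 12 h, where its samples differed widely. TARDBP, the RNA-binding protein TDP-43, was also lowest at 8 h, at 292 ± 6.05 CPM in DMSO, 200 ± 4.37 CPM at 4 h, 132 ± 3.32 CPM at 8 h and 207 ± 3.21 CPM at 12 h (SD, n = 3), and was singled out after its values were seen. The median genomic span was 37.9 kb for genes highest at 8 h and 13.7 kb for those lowest at 8 h, and 15.1% of the latter had a single exon.

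**Figure D4:**
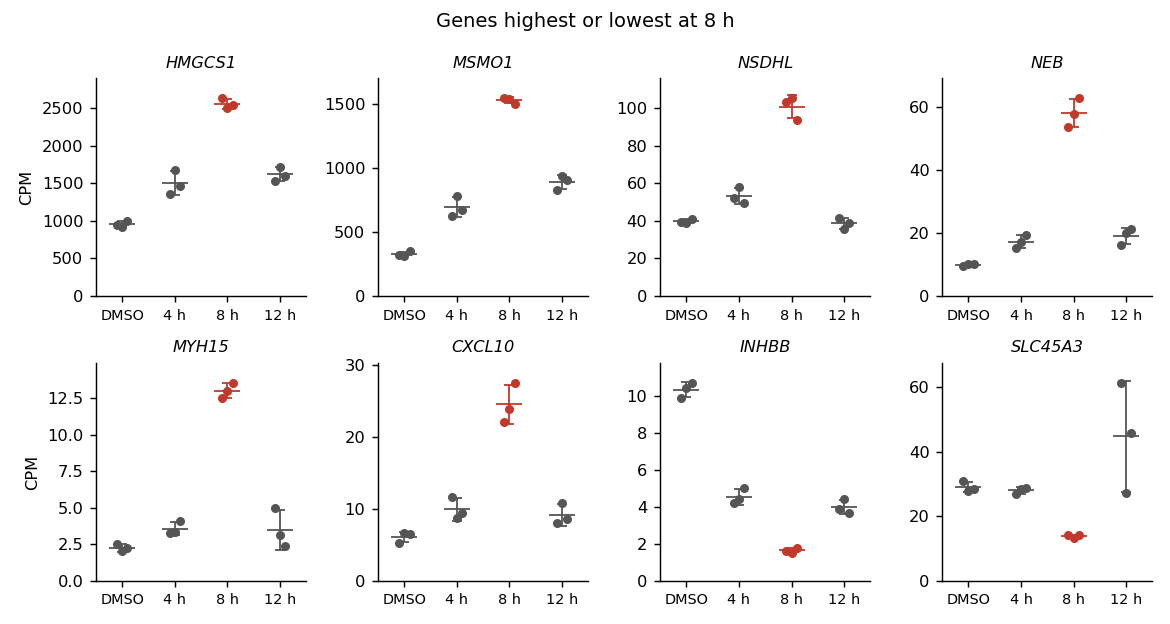
TMM-scaled CPM (vertical axes, linear from 0) of 6 genes highest and 2 genes lowest at 8 h of PBITE-1, in DMSO and at 4, 8 and 12 h. Points are samples, horizontal marks are means and bars are SDs (n = 3), with 8 h in red. The 8 h samples of HMGCS1, MSMO1, NSDHL, NEB, MYH15 and CXCL10 lie above all others, and those of INHBB and SLC45A3 below all others.

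Between 4 and 8 h, 315 genes (2.22%) fell and 628 (4.43%) rose in the direct contrast, and between 8 and 12 h, 933 genes (6.59%) fell and 493 (3.48%) rose. Among genes with a mean count of at least 50 and groups that did not overlap, as the naming rule asks, those that rose most from 4 to 8 h were EPHB1, CEACAM22P, LAMP3, LURAP1L, CCDC85A and DNAH9. EPHB1, an ephrin receptor, was at 0.359 ± 0.12 CPM at 4 h (SD, n = 3) and 5.95, 7.57 and 5.29 CPM at 8 h. LAMP3, a lysosomal membrane protein, was at 2.74 CPM at 4 h, 22.4, 25.3 and 22.3 CPM at 8 h and 106 ± 22 CPM at 12 h. Under the same limits, those that fell most were LRFN1, LINGO3, BNC2, IKZF3, APLN and TNS3. BNC2, a zinc finger factor, was at 14.5 CPM in DMSO, 14.3 CPM at 4 h and 3.09, 3.10 and 3.23 CPM at 8 h, and TNS3, a focal adhesion tensin, at 36.4, 32.2 and 8.23 ± 0.428 CPM. Neither gene had moved by a called amount at 4 h.

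After 8 h, under the same limits on count and overlap, the largest increases were those of CYP1A1, HSPA6, HSPA1A, DNAJB9, SLITRK6 and ZNF248. CYP1A1, the classic target of the aryl hydrocarbon receptor, stood at 3.97, 2.75 and 3.86 CPM at 8 h and 363 ± 14 CPM at 12 h, although AHR itself was already raised at 8 h (log2 fold change 3.70). The largest decreases under these limits were those of IL1RAPL1, ART3, NOS1, UHRF1, KLK3 and MGAT3. UHRF1, which maintains DNA methylation at replication, was at 110.1, 117 and 112.7 CPM in DMSO, 78.1, 71.0 and 72.6 CPM at 8 h and 9.76 ± 0.852 CPM at 12 h (SD, n = 3).

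Most replication genes were short of the fold threshold at 8 h. Of 44 S-phase genes, 3 were called lower (POLE2, MCM3 and MCM5, at -1.13, -1.10 and -1.06). Called higher was 1, SLBP, the histone mRNA-binding protein, at 1.07, and the median was -0.33. Of all genes tested, 8.86% were called lower and 14.9% higher. Between 8 and 12 h, 24 of the 44 were called lower, beside 6.59% of all genes. MCM3, a subunit of the replicative helicase, was at 168.5, 169.2 and 172.2 CPM in DMSO, 81.0, 80.1 and 76.9 CPM at 8 h and 39.3 ± 1.35 CPM at 12 h. Of 40 G2/M genes, 1 was called, NUSAP1, at under 1 CPM in both groups, and the median was 0.01 (-0.05 by library size alone). Several CDK inhibitors rose. CDKN1A, which encodes p21, went from 50.2, 46.7 and 44.5 CPM to 300.7, 299.4 and 299.6 CPM (log2 fold change 2.67, SE 0.06), CDKN2B from 1.05, 0.55 and 1.26 CPM to 28.8, 32.4 and 30.1 CPM, and CDKN1C had a log2 fold change of 5.81. CCND1, cyclin D1, was at 0.97, just short of the threshold.

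Of 27 p53 target genes, 11 were called higher and 1 lower (AEN, -2.23), beside 14.9% and 8.86% of all genes tested. The list's median was 0.87. Several of the 11 belong to the integrated stress response list as well, among them SESN2, BBC3 and TNFRSF10B. MDM2 had a log2 fold change of -0.21 and BAX of -0.02. In the BCL2 family, the BH3-only genes BBC3 (5.35), PMAIP1 (3.97), HRK (3.30), BCL2L11 (2.36), BIK (1.63) and BMF (1.02) were called higher, and the antiapoptotic BCL2L1 (-1.01) and the BH3-only BID (-1.43) lower. The calls of BMF and BCL2L1 lay at the threshold, and BMF was short of it by library size alone (0.95) and as a ratio to GAPDH (0.82). BMF was at 0.96 without DMSO replicate 2 and 0.99 without 8 h replicate 3, and BCL2L1 at -0.98 without DMSO replicate 1 or 8 h replicate 3 and -0.99 without 8 h replicate 1. BBC3, which encodes PUMA, rose from 1.05, 0.55 and 0.63 CPM to 27.8, 33.1 and 29.4 CPM. MCL1, antiapoptotic and short-lived, had a log2 fold change of 0.77.

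Replication-dependent histone genes were raised as well. Of 15 tested genes, 12 were called higher and 0 lower by limma-voom and edgeR (13 and 0 by the unadjusted p), with a median of 2.30. The limma-voom shares over all genes tested were 14.9% and 8.86%. H2BC5 rose from 7.49, 6.53 and 5.54 CPM to 141.5, 152.5 and 149.1 CPM, and H2BC4 from 4.8, 5.55 and 6.85 CPM to 82.2, 84.3 and 83.5 CPM. The assignment of reads among these similar genes is uncertain.

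**Figure D5:**
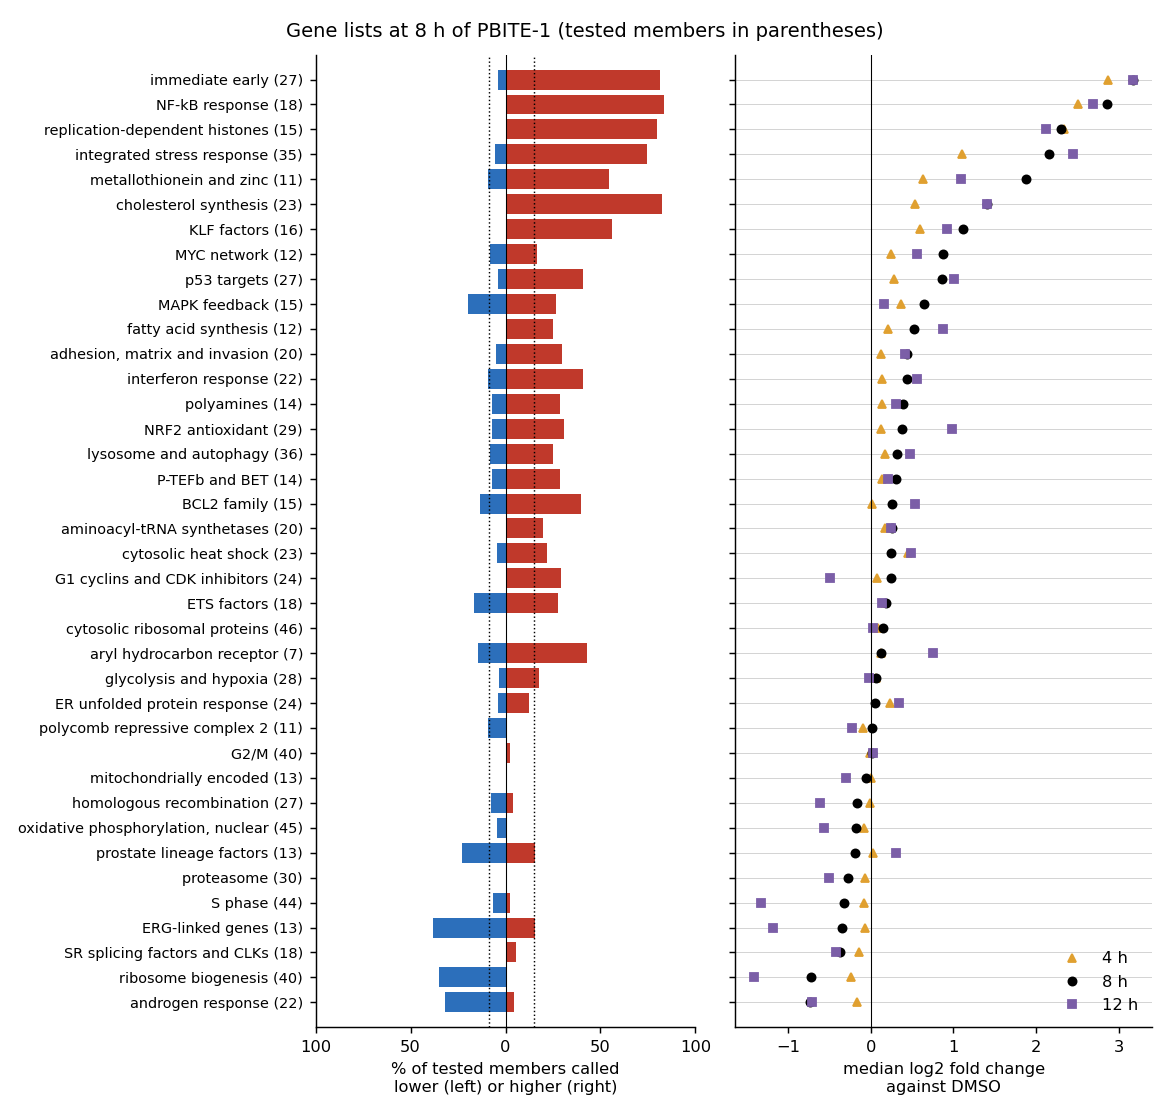
Left, percent of tested members of 38 gene lists called lower (blue) or higher (red) at 8 h against DMSO, with dotted lines at 8.86% and 14.9%, the shares over all genes tested. Right, median log2 fold change against DMSO at 4 h (triangles), 8 h (circles) and 12 h (squares). The immediate early, NF-kB, histone, stress and cholesterol lists lie at the top, and ribosome biogenesis and androgen response genes at the bottom.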

How the data were processed

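Total RNA of VCaP cells was depleted of ribosomal RNA, prepared with the KAPA RNA HyperPrep RiboErase kit and sequenced as paired-end reads on a NovaSeq. The authors deposited raw counts per Ensembl gene as whole numbers without normalization. The study's methods name Kallisto for quantification, whereas the submitters' processing notes name STAR, featureCounts and hg38, so it is not settled how reads of similar or overlapping genes were assigned, nor is use of strand given in the sources used here.

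Of 22034 genes, 22011 were matched to the symbol table and 21921 to GENCODE 29, and filterByExpr over the 6 groups kept 14164 genes with at least 99.9% of each sample's counts. The study's methods name edgeR normalization and limma-voom. Here the 12 parental samples were fitted together without covariates, by TMM and voom with limma 3.58.1 and edgeR 4.0.16 in R 4.3.3, with Benjamini-Hochberg adjustment over all genes tested. A call required an adjusted p under 0.05 together with a log2 fold change above 1 or below -1. For genes with 1 to 3 counts over the DMSO samples, the ratio of summed counts is given with an exact 95% interval, and for genes at 0 a bound against 3 counts. Intervals cover counting error only. Replicate pairs within groups differed by more than sampling noise, so each of the 3 samples per group counted separately. The fit was also run on simulated counts for 8 h against DMSO, 8 h against 4 h and 12 h against 8 h. These were drawn from the means and library sizes of the data with a common dispersion. For 8 h against DMSO, 100 of 100 genes with a set log2 change of 1.5 were called, with 1 false call. The changed genes were few, were raised and lowered in equal number, and included no genes of low count. In the data the changes were broad and calls concentrated at low levels. Recovery and false calls under those conditions were not tested.

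Named genes were the 12 with the largest change each way at 8 h (groups not overlapping, mean count of at least 50), the 6 each way between 8 h and 4 h and between 12 h and 8 h, up to 8 highest or lowest at 8 h, the 4 largest changes and the most abundant member of each list, the genes of the study's qPCR, and MYC. Some genes that this rule gives are not reported here. Further members of a list are given as examples of its counts, and were chosen after their values were seen. Members and lists were chosen with earlier results of these data known. The alternatives run were DESeq2 1.42.0, the quasi-likelihood test of edgeR, other scalings and filters, other sample sets, the replicate block, leaving out each sample, and the ratio to GAPDH.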

Additional observations from a re-analysis of the deposited data

Results flagged for a closer look

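The direct contrasts between times, tested by limma-voom in the fit of the 12 parental samples, differed for many genes. From 4 to 8 h, 315 genes were lower and 628 higher, and from 8 to 12 h, 933 were lower and 493 higher. Only 3 genes were called in opposite directions against DMSO at 8 and 12 h with a called difference between these times. The 2 that were lower and then higher were BHLHA15, a secretory cell factor, with 1.28 ± 0.318 CPM in DMSO, 0.295 ± 0.117 CPM at 8 h and 3.5 ± 0.758 CPM at 12 h, and C1GALT1C1L, with 0.488 ± 0.108, 0.208 ± 0.226 and 1.07 ± 0.356 CPM. The 1 that was higher and then lower was LRRC4C, a synaptic adhesion protein, with 1.57 ± 0.454, 4.21 ± 0.577 and 0.483 ± 0.0336 CPM (SD, n = 3 each). The decrease of C1GALT1C1L at 8 h (log2 fold change -1.82) was not called by edgeR (-1.34) or DESeq2 (-1.35), without a filter on low counts (-1.78) or without 8 h replicate 2 (-0.78). All 3 are genes of low level, and they were singled out after their values were seen.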

How the results depend on the processing

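Under edgeR, DESeq2, other scalings, no filter, other sample sets and the replicate block, every genome-wide count of calls stayed within 1.5 times its value. This does not cover single gene lists, where 30 of 228 values moved. By library size alone, the ERG-linked list had 1 called increase instead of 2, and the cholesterol list 17 instead of 19. The genome-wide counts moved further only when genes were required to have at least 10 counts in every parental sample, which leaves 12044 genes: 174 lower and 269 higher from 4 to 8 h, 505 lower and 316 higher from 8 to 12 h, and 89 highest at 8 h. This filter tests fewer genes and removes those that were scarce in any group. With 1 sample left out at a time there were 1206 to 1262 genes lower and 2060 to 2109 higher at 8 h than in DMSO, 282 to 322 lower and 573 to 638 higher than at 4 h, 866 to 920 lower and 481 to 513 higher at 12 h than at 8 h, 176 to 216 highest and 80 to 117 lowest at 8 h. Same-numbered samples did not deviate together, so the numbers were not taken as pairs, and the fit with the replicate block gave 1242 lower and 2099 higher at 8 h. Scaling by library size alone shifted the median of all genes from -0.02 to -0.09 and gave 1442 lower and 1961 higher. Among 228 genes named in the text, 34 values under alternatives lost a call, 3 gained one and 19 changed sign, the last all in genes near 0 that were not called. With the ratio to GAPDH, EHF was at -0.126, SREBF2 at -0.185 and IL1RAPL1 at -0.144. IL1RAPL1 was at -0.0093 and SREBF2 at -0.0532 by library size alone, and SREBF2 was at -0.0148 with upper-quartile factors, -0.005 with at least 10 counts per sample and -0.0145 with all 18 samples. MX1 was at 0.0051 with the 2 groups alone and 0.0193 with the replicate block. With 1 sample left out, MX1 ranged from -0.114 to 0.147, ISG15 from -0.375 to 0.0716, SREBF2 from -0.0064 to 0.0234, BAX from -0.114 to 0.0311 and NQO1 from -0.137 to 0.0833. The cause was not tested.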

Other observations

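In the list of autophagy and lysosome genes, 9 of 36 were called higher and 3 lower, beside 14.9% and 8.86% of all genes tested. MAP1LC3B, the autophagosome protein LC3B, went from 9.46, 7.51 and 8.62 CPM to 66.4, 72.6 and 68.8 CPM (log2 fold change 3.02, SE 0.13), and the nutrient-sensing GTPase gene RRAGC (1.76), the folliculin partner FNIP1 (1.64) and the autophagy receptor SQSTM1 (1.49) rose. TFEB, a master regulator of lysosomal genes, was called lower (-1.40). Of 29 NRF2 target and antioxidant genes, 9 were higher and 2 lower, beside the same shares of all genes. Called increases numbered 8 by edgeR and 7 by library size alone. HMOX1, heme oxygenase, had a log2 fold change of 4.45 (SE 0.76), but it was scarce, at 0.12 CPM in DMSO and 3.14 CPM at 8 h. GCLC, the catalytic subunit of glutathione synthesis, had a log2 fold change of 1.28, and NQO1, a common NRF2 marker, of -0.05.

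Of 14 polyamine genes, 4 were called higher and 1 lower, beside 14.9% and 8.86% of all genes tested. AMD1, which makes decarboxylated S-adenosylmethionine, went from 1172, 1112 and 1117 CPM to 308.4, 311.9 and 303.1 CPM (log2 fold change -1.88, SE 0.04). SAT1, which acetylates polyamines for export and breakdown, went from 33.3, 33.4 and 33.6 CPM to 261.2, 262.9 and 262.3 CPM (2.97, SE 0.07). The oxidase SMOX had 1.84 and ODC1, ornithine decarboxylase, 0.40. Among P-TEFb and BET genes, 4 of 14 were higher and 1 lower, beside the same shares of all genes, 14.9% and 8.86%. HEXIM1, the inhibitor of the elongation kinase P-TEFb, went from 48.9, 47.3 and 53.7 CPM to 314.9, 319.7 and 318 CPM, and BRD2 (1.16), AFF4 (1.33) and MEPCE (1.60) rose.

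In the glycolysis and hypoxia list, 5 of 28 were higher (17.9%, near the 14.9% of all genes) and 1 lower, and the median was 0.06 (-0.01 by library size alone). VEGFA, the angiogenic growth factor, rose from 19.6, 18.6 and 18.8 CPM to 300.1, 291.3 and 304.2 CPM, while the glycolytic genes ENO1 (-0.32), LDHA (-0.44) and PGK1 (-0.03) did not pass the fold threshold. Of 45 nuclear genes of oxidative phosphorylation, 2 were lower (4.44%, below the 8.86% of all genes), NDUFB3 (-1.08) and ATP5MC1 (-1.03, but -0.99 without DMSO replicate 1 and -0.97 without 8 h replicate 2). SR splicing factors and CLK kinases had 1 call among 18, CLK1 (1.26), and a median of -0.38, with SRSF2 at -0.89 and SRSF5 at -0.86. Of 27 homologous recombination genes, 2 were lower (7.41%, near the share of all genes), PALB2 (-1.43) and RAD51D (-1.07), and DMC1 (1.33) was higher at under 1 CPM, without a call when DMSO replicate 3 (1.32) or 8 h replicate 2 (1.11) was left out. Of 20 tested adhesion and matrix genes, 6 were higher and 1 lower, beside 14.9% and 8.86% of all genes tested. SNAI2 was at 4.49 and the epithelial cadherin CDH1 at 0.41. Of 7 tested aryl hydrocarbon receptor genes, AHR (3.70), TIPARP (2.60) and CYP1A1 (1.94) were higher and CYP1B1 (-1.68) lower. The shares over all genes tested were again 14.9% and 8.86%.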
